A study of Mus musculus with 24 samples.

Results

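The interleukin-1 family was followed in 8 mouse astrocyte lines by RNA-seq, with 3 libraries per line and 24 in all. The set was chosen by the measured level of Il1rn, which rose from near zero in female p53 KO astrocytes to about 1000 CPM (read counts scaled to the size of the library) in female p53 R172H astrocytes, and it lists the 8 genes Il1rn, Il1a, Il1b, Il1r1, Il1rap, Il1rl1, Il33, and Il18. Of these, 6 could be matched to the 14427 genes of the count table. Il1a and Il1b were not analysed here. Because Il1rn and the comparison of female p53 R172H with female p53 KO selected the set, they are described without a test, and the other 5 genes were tested in the other lines.

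The question of the study was how mutant p53 acts in male and female cells. Astrocytes came from the cortex of postnatal day 1 pups of the C57BL/6 strain that carried 1 floxed and 1 deleted Trp53 allele (Trp53 f/-), pooled by sex into 1 culture per sex. All 8 lines, controls included, received a lentivirus with Cre and a puromycin resistance gene, which removes the remaining Trp53 allele, and were selected with puromycin. The female and male p53 KO lines received nothing further. The female and male p53 R172H, p53 Y202C, and p53 Y217C lines also received a retrovirus that carries the mutant Trp53 and eGFP, and were sorted by flow cytometry for eGFP, so a mutant line and its KO control differ in the virus and the sort as well. RNA was taken at passages 10 to 15. Sex and culture cannot be told apart, the 3 libraries of a line are, by the study's methods, separate thaws and platings of that line, and p-values measure the spread between such platings and not between animals.

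Interleukin-1 signaling starts when the ligands encoded by Il1a and Il1b bind the receptor encoded by Il1r1, which then recruits the accessory protein encoded by Il1rap. Il1rn encodes the interleukin-1 receptor antagonist, which occupies the same receptor without recruiting the accessory protein and so blocks the ligands. Il33 and Il18 encode related ligands. IL-33 signals through the product of Il1rl1, known as ST2, with the same accessory protein, and ST2 is also made as a soluble decoy. In brain tissue, astrocytes are known to respond to interleukin-1 from microglia with chemokines and other inflammatory products.

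Total counts per library ranged from 52787288 to 136503809. Trp53 was at 46.5 to 53.7 CPM in the 6 p53 KO libraries and at 572 CPM or more in every mutant library. Its mean was 1956 CPM in female and 2287 CPM in male p53 R172H. With p53 Y202C it was 593 CPM in the female and 2324 CPM in the male line, and with p53 Y217C 3709 and 1215 CPM. Lines of the same mutation thus differed in Trp53 level, and the part of this in the differences between the sexes was not tested. Gfap, a defining astrocyte marker, was at or below 0.29 CPM in every library of 7 lines and at 4.98 to 8.37 CPM in male p53 Y217C. The summed level of 10 astrocyte markers was 650 to 685 CPM in female p53 R172H and 391 to 416 CPM in female p53 KO, and Slc1a3, a glutamate transporter, moved from 18.7 ± 3.20 to 281 ± 8.49 CPM (SD, n = 3 each). The other astrocyte markers went both ways there. Aldh1l1 was at 14.9 against 0.204 CPM, Sox9 at 183 against 113 CPM, and Aldoc at 4.22 against 1.63 CPM. Lower were Gja1, a gap junction protein, at 157 against 221 CPM, Glul, glutamine synthetase, at 31.6 against 43.8 CPM, and Gfap at 0.0482 against 0.124 CPM. Aqp4, Slc1a2, and S100b were below 1 CPM in both lines. Markers of fibroblasts and pericytes, all 8 of them with a row, summed to between 18749 and 57786 CPM over the libraries, with 50170 to 57786 CPM in female p53 R172H and 35921 to 38160 CPM in female p53 KO. In the same order of lines, the summed markers with a row were 59.2 to 60.7 and 225 to 253 CPM for endothelial cells (4 of 7 markers, without Pecam1), 31.2 to 32.8 and 120 to 129 CPM for epithelial cells (4 of 10, without Epcam), 31.3 to 38.2 and 126 to 129 CPM for neurons (3 of 8, without Rbfox3), and 332 to 367 and 283 to 293 CPM for the oligodendrocyte lineage (4 of 9, without Sox10). These sums rest on few genes that did not all move together. Krt19 was at 25.2 against 121 CPM and Dsp at 0.264 against 1.46 CPM, while Cdh1 was at 2.55 against 0.0497 CPM and Trp63 at 3.68 against 0.248 CPM. Pdgfra was at 165 against 3.09 CPM and Cspg4 at 171 against 280 CPM. Of 15 markers of microglia and macrophages, 12 had no row, the defining Ptprc, Itgam, Aif1, and Cx3cr1 among them. The other 3 (Tmem119, Csf1r, and Cd68) summed to 105 to 116 CPM in female p53 R172H, 75.0 to 90.3 CPM in female p53 Y202C, 45.8 to 49.6 CPM in female p53 KO, and 26.5 to 105 CPM in the other lines, with a mean of 107 CPM for Tmem119 in the first of these. The part of these marker levels in the results below was not tested, and in bulk RNA fewer cells of a type and less RNA per cell cannot be told apart.

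Il1rn lies on chromosome 2 (GRCm38, chr2:24336853-24351494, plus strand, ENSMUSG00000026981). It is known to be made in secreted and intracellular forms from separate starts, and the counts are per gene, so the starts could not be separated. RefSeq gives 3 starts on GRCm38.p6, of which the last 2 lie close together with overlapping windows. The 250 bases upstream of the first and the second start are shown because the largest level in the set belongs to this gene. Capitals mark a match to a motif searched on both strands, AP-1 (TGANTCA), C/EBP (TTGCNNAA), the TATA box (TATAAA), or NF-kappaB.

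Il1rn upstream start, chr2:24336610-24336859, plus strand: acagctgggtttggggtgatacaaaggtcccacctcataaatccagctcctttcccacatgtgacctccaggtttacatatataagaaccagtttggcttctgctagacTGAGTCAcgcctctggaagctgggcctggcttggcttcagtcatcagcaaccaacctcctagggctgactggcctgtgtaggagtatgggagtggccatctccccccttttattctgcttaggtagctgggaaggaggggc

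Il1rn downstream start, chr2:24345041-24345290, plus strand: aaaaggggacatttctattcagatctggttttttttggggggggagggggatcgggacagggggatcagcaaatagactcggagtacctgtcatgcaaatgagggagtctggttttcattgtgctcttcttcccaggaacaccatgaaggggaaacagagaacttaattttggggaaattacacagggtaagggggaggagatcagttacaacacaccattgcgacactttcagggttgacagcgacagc

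The upstream window held 1 AP-1 match, which begins 141 bases before the start, and the downstream window held no match to any of the 4 motifs. Over 13206 promoter windows of the same length from genes of the table, where a gene can have more than 1 window, 4.56% held an AP-1 match, 7.37% a C/EBP match, 6.39% a TATA box, and 8.95% an NF-kappaB match. The same windows are shown for Il1rl1, which has the highest level per kilobase among the receptors of the set in female p53 R172H and is known to use a distal and a proximal promoter.

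Il1rl1 distal start, chr1:40429320-40429569, plus strand: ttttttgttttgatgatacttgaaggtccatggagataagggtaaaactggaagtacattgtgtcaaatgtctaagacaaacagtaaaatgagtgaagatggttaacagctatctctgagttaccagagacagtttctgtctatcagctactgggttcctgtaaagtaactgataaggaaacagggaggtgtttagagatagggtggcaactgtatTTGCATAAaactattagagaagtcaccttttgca

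Il1rl1 proximal start, chr1:40439379-40439628, plus strand: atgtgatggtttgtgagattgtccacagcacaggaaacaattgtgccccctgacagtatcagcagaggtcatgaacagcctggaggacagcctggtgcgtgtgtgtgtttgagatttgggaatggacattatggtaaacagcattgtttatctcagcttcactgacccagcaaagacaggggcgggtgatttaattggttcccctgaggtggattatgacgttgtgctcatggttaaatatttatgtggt

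The distal window of Il1rl1 held a C/EBP match 34 bases before the start, and the proximal window held none of the 4 motifs. Each match is a description of the letters only.

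Il1rn was near zero in 6 of the 8 lines and abundant in female p53 R172H and female p53 Y202C astrocytes. In female p53 R172H it was measured at 1150, 1077, and 999 CPM, from 100972 to 131093 reads per library. In female p53 KO it was at 0.0295, 0.128, and 0.116 CPM, from 3 to 12 reads. Female p53 Y202C had 89.6, 85.6, and 91.6 CPM, and female p53 Y217C had 0.211, 0.305, and 0.236 CPM. None of the 4 female lines overlapped another.

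In males, Il1rn was at 0.411, 0.453, and 0.472 CPM in p53 KO and at 0.591, 0.769, and 0.968 CPM in p53 R172H. Male p53 Y202C had 0.5, 0.515, and 0.427 CPM, overlapping its control, and male p53 Y217C had 0.125, 0.103, and 0.107 CPM, below it. The order of the line means ran from female p53 R172H (1075 ± 75.5 CPM, SD, n = 3) through female p53 Y202C (88.9 ± 3.06 CPM), male p53 R172H, male p53 Y202C, male p53 KO, female p53 Y217C, and male p53 Y217C to female p53 KO (0.0911 ± 0.0538 CPM). Only male p53 Y202C with male p53 KO, and male p53 Y217C with female p53 KO, were neighbors in this order whose libraries overlapped. The gap between the second and the third line was 115-fold.

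Against female p53 KO, the mean of Il1rn was 11799-fold higher in female p53 R172H, 976-fold higher in female p53 Y202C, and 2.75-fold higher in female p53 Y217C. The denominator rests on a handful of reads, so these ratios carry its counting error. In males the ratio to p53 KO was 1.74 with the R172H mutation, 1.08 with Y202C, and 0.251 with Y217C. Between the sexes, Il1rn was 1386-fold higher in female than in male p53 R172H and 185-fold higher in female than in male p53 Y202C. In p53 KO the order was the other way, with the male mean 4.89-fold above the female mean. Per kilobase of merged exon, Il1rn in female p53 R172H was at 194 CPM per kb, and in female p53 KO at 0.0165 CPM per kb.

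**Figure D1:**
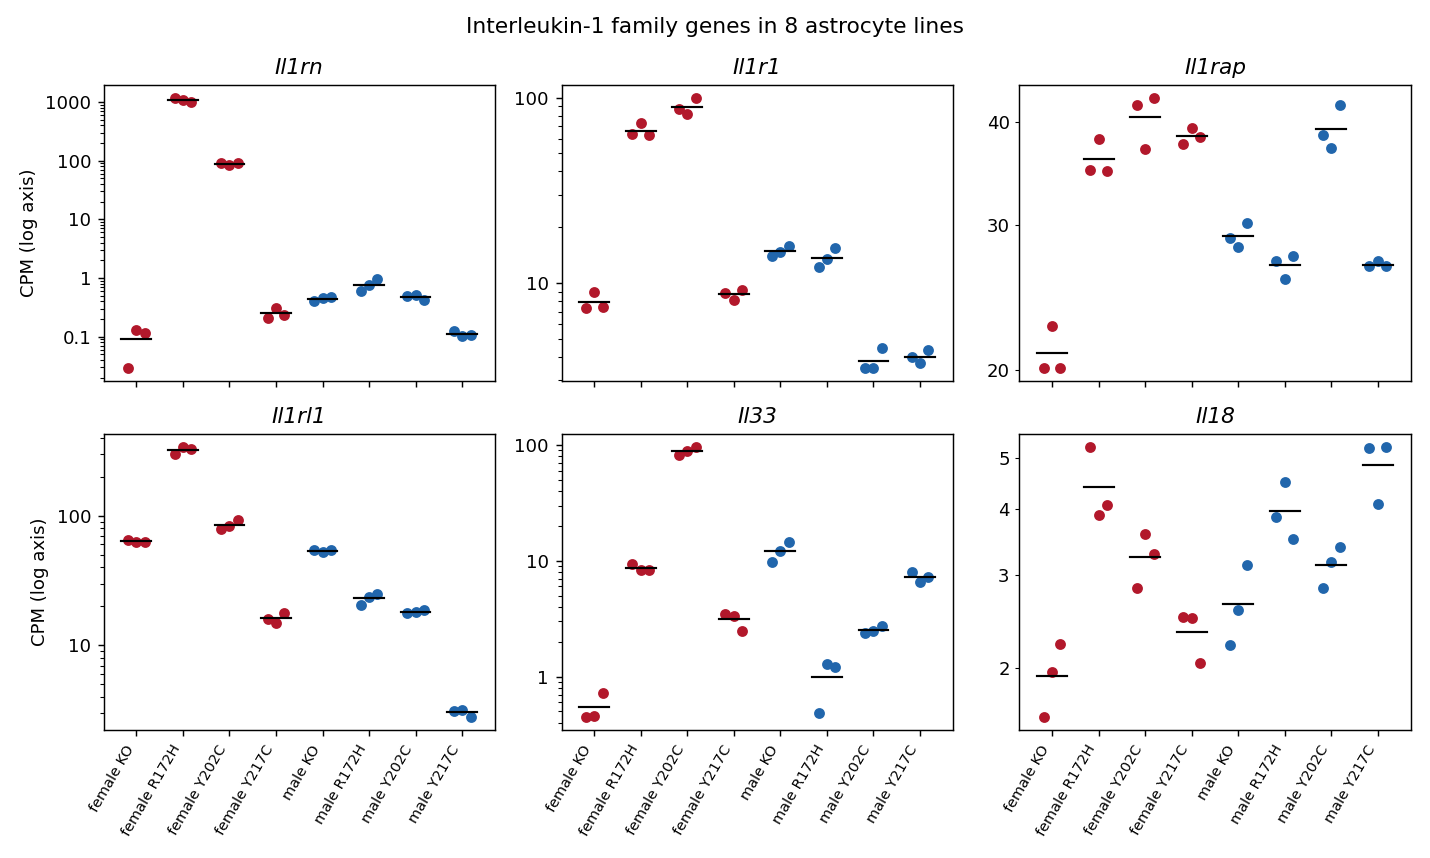
CPM on a log axis for the 6 interleukin-1 family genes, 1 panel per gene, with 1 point per library (female lines red, male lines blue) and a bar at the mean of the 3 libraries of a line. Il1rn stands at 999 to 1150 CPM in female p53 R172H and 85.6 to 91.6 CPM in female p53 Y202C and below 1 CPM in every other library.

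The 5 other genes did not share 1 pattern with Il1rn. In female p53 Y202C all 5 were higher than in p53 KO, while in each male mutant line more of them were lower than higher. Called means an adjusted p of at most 0.05 in edgeR's quasi-likelihood test over all 14427 genes. Against male p53 KO, 1 member was higher and 2 were lower in p53 R172H, where 20.2% of all genes were called higher and 20.5% lower. In male p53 Y202C 1 was higher and 3 were lower, with 37.6% and 35.4% of all genes called in those directions. In male p53 Y217C 1 was higher and 3 were lower, beside 34.9% and 35.6% of all genes. In female p53 Y202C 5 were higher and 0 lower, beside 34.3% higher and 34.3% lower over all genes. In female p53 Y217C 2 were higher and 1 was lower, beside 28.0% and 28.7%. The 3 comparisons of a sex share their KO libraries. With 5 genes, these counts describe the members and say nothing of the family as against other genes.

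Il1r1, the signaling receptor that Il1rn's product occupies (chr1:40225080-40317257, ENSMUSG00000026072), was high in the same pair of lines as Il1rn, but in the reverse order. Female p53 Y202C had 87.0, 81.9, and 99.1 CPM and female p53 R172H had 63.7, 72.6, and 63.1 CPM, against 7.32, 8.93, and 7.39 CPM in female p53 KO. The libraries of each of these lines lay apart from those of the others. Female p53 Y202C exceeded p53 KO by 3.51 on the log2 scale (SE 0.11, adjusted p = 2.23e-18, edgeR). The mean in female p53 R172H was 8.44-fold that in female p53 KO, given without a test. Female p53 Y217C, at 8.87, 8.12, and 9.13 CPM, overlapped its control, with a log2 difference of 0.15 (adjusted p = 0.239).

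The male lines moved the other way or not past the test. Male p53 KO had 14, 14.7, and 15.9 CPM of Il1r1. Male p53 Y202C had 3.50, 3.49, and 4.45 CPM, a log2 difference of -1.97 (SE 0.11, adjusted p = 8.15e-14), and male p53 Y217C had 3.98, 3.69, and 4.37 CPM, a log2 difference of -1.89 (SE 0.11, adjusted p = 1.58e-13). These lines lay fully below their control and overlapped each other. Male p53 R172H, at 12.2, 13.5, and 15.4 CPM, overlapped male p53 KO (log2 difference -0.12, adjusted p = 0.348).

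Il1rap, the accessory protein shared by the receptors for interleukin-1 and IL-33 (chr16:26581704-26730117, ENSMUSG00000022514), spanned a narrow range, from a lowest line mean of 21.0 CPM in female p53 KO to a highest of 40.6 CPM in female p53 Y202C. Female p53 KO had 20.1, 22.6, and 20.1 CPM. Female p53 Y202C had 41.9, 37.1, and 42.7 CPM (log2 difference 0.95, SE 0.06, adjusted p = 2.77e-12) and female p53 Y217C had 37.6, 39.3, and 38.3 CPM (0.87, adjusted p = 3.16e-11). Female p53 R172H, described without a test, had 35.0, 38.1, and 34.9 CPM. All 3 female mutant lines lay above female p53 KO, and neighbors among them overlapped.

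Among males, Il1rap was at 28.9, 28.2, and 30.1 CPM in p53 KO and at 38.5, 37.2, and 41.9 CPM in p53 Y202C (log2 difference 0.43, adjusted p = 9.2e-07). Male p53 R172H, at 27.1, 25.8, and 27.5 CPM, and male p53 Y217C, at 26.7, 27.1, and 26.7 CPM, lay below the control libraries without overlap, by log2 differences of -0.12 (adjusted p = 0.137) and -0.11 (adjusted p = 0.104) that did not pass the test.

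Il1rl1, which encodes ST2, the receptor for IL-33 (chr1:40429570-40465415, ENSMUSG00000026069), was the member with the most ordered levels, since no neighbors in the order of its 8 line means overlapped. It was at 300, 338, and 327 CPM in female p53 R172H (322 ± 19.4 CPM, SD, n = 3) and at 64.9, 62.3, and 63.1 CPM in female p53 KO, a 5.07-fold ratio given without a test. Female p53 Y202C, at 78.3, 83.9, and 93.4 CPM, was higher than p53 KO by 0.43 on the log2 scale (adjusted p = 9.91e-06). Female p53 Y217C, at 16.0, 14.8, and 17.7 CPM, was lower, with a log2 difference of -1.98 (adjusted p = 3.52e-16). The 3 female mutants thus stood on both sides of their control.

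All 3 male mutant lines had less Il1rl1 than male p53 KO, which was at 54.8, 52.7, and 54.1 CPM. Male p53 R172H had 20.5, 23.6, and 25.0 CPM, a log2 difference of -1.23 (adjusted p = 2.46e-12). Male p53 Y202C had 17.7, 18.1, and 18.6 CPM, a log2 difference of -1.57 (adjusted p = 3e-15). The lowest level of the gene was in male p53 Y217C, at 3.13, 3.16, and 2.83 CPM, where the log2 difference was -4.15 (adjusted p = 1.53e-21).

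Il33, the ligand of ST2 and a nuclear alarmin (chr19:29925114-29960718, ENSMUSG00000024810), differed in direction between the sexes. Female p53 KO had 0.452, 0.461, and 0.715 CPM, and every female mutant library was above these. Female p53 Y202C had 81.3, 88.5, and 96.0 CPM, higher by 7.33 on the log2 scale (adjusted p = 4.06e-18), and female p53 Y217C had 3.49, 3.35, and 2.5 CPM, higher by 2.51 (adjusted p = 6.91e-09). Female p53 R172H had 9.37, 8.32, and 8.25 CPM, 15.9-fold the mean of its control, without a test.

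In males Il33 started from a higher level, 9.68, 12.1, and 14.4 CPM in p53 KO, and every male mutant library was below these. Male p53 R172H had 0.484, 1.29, and 1.2 CPM (log2 difference -3.65, adjusted p = 1.63e-12). Male p53 Y202C had 2.38, 2.46, and 2.71 CPM (-2.27, adjusted p = 1.04e-10), and male p53 Y217C had 8.02, 6.56, and 7.18 CPM (-0.74, adjusted p = 0.000458).

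Il18, a ligand that signals through its own receptor pair (chr9:50554827-50581840, ENSMUSG00000039217), was low in all 8 lines, from a mean of 1.94 CPM in female p53 KO to 4.85 CPM in male p53 Y217C, and every pair of neighbors in that order overlapped. Female p53 Y202C had 2.84, 3.60, and 3.29 CPM against 1.62, 1.97, and 2.22 CPM in female p53 KO (log2 difference 0.74, adjusted p = 0.0004). Male p53 R172H had 3.87, 4.50, and 3.52 CPM against 2.21, 2.58, and 3.14 CPM in male p53 KO (0.58, adjusted p = 0.00578), and male p53 Y217C had 5.23, 4.09, and 5.25 CPM (0.87, adjusted p = 3.83e-05). Male p53 Y202C, at 2.84 to 3.40 CPM, and female p53 Y217C, at 2.05 to 2.5 CPM, overlapped their controls and did not pass the test (adjusted p = 0.188 and 0.16). Female p53 R172H, without a test, had 5.25, 3.91, and 4.07 CPM.

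The strand of counting was not given in the sources used here, and Il18 overlaps Bco2 on the opposite strand, so reads of the pair cannot be told apart where they overlap. Bco2 was at 1.91 ± 0.527 CPM in male p53 Y217C, 0.540 ± 0.217 CPM in male p53 KO, and 0.806 ± 0.104 CPM in female p53 R172H (SD, n = 3 each), and its part in the Il18 differences was not tested. Gm38070 overlaps Il1r1 and Gm20319 overlaps Il1rap in the annotation, and neither was analysed here.

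**Figure D2:**
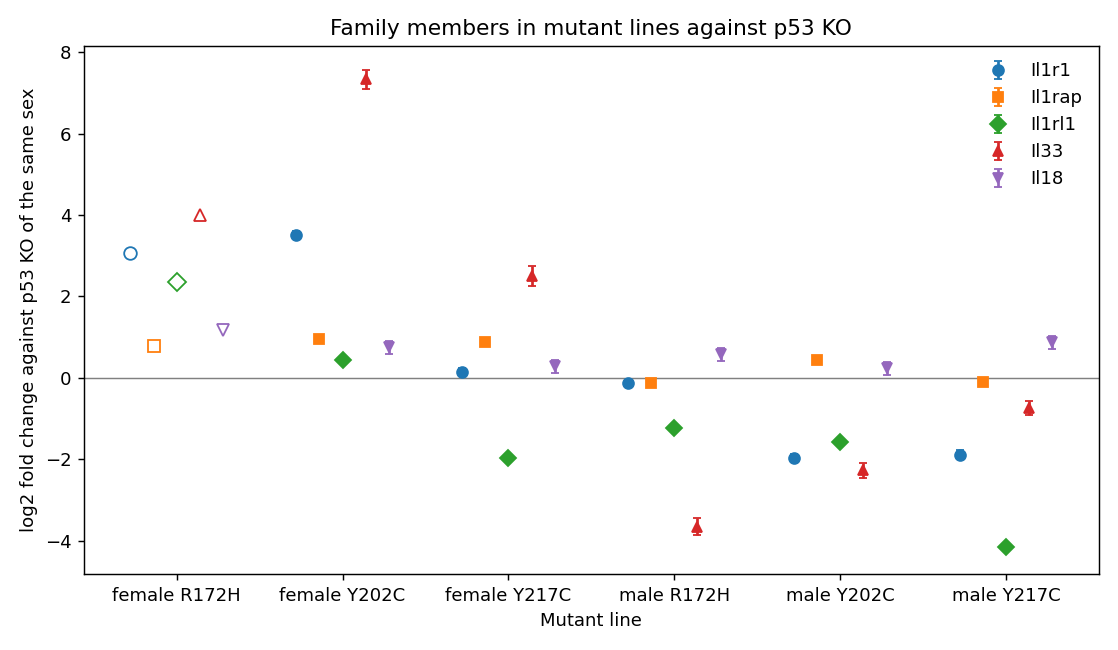
Log2 fold change (vertical axis) of 5 family genes in each mutant line against p53 KO of the same sex. Filled symbols are edgeR estimates with bars of 1 standard error, and open symbols for female p53 R172H are log2 ratios of mean CPM without a test. Il33 lies at 7.33 in female p53 Y202C and at -3.65 in male p53 R172H, on opposite sides of zero in the sexes.

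Levels of the antagonist, the receptors, and Il33 within a line were compared per kilobase of merged exon. Merged exons pool all annotated transcripts of a gene, so ratios between genes depend on which transcripts a line makes, which was not measured. The ligands Il1a and Il1b do not enter this comparison. Il1rn exceeded Il1r1 18.6-fold in female p53 R172H, at 194 and 10.4 CPM per kb, and was about level with it in female p53 Y202C, at 16.1 and 14 CPM per kb. In the other 6 lines Il1r1 exceeded Il1rn, by 6.91-fold in male p53 Y202C up to 75.2-fold in female p53 KO. Il1r1 was 3.30-fold above Il1rap in female p53 R172H and 3.93-fold above it in female p53 Y202C, and was below Il1rap in each of the other 6 lines. There the ratio of Il1r1 to Il1rap ran from 0.174 in male p53 Y202C to 0.913 in male p53 KO, so the 2 genes were nearly level in some lines.

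Il33 exceeded Il1rl1 per kilobase in 2 lines. It was at 30.7 against 12.4 CPM per kb in female p53 Y202C and at 2.51 against 0.441 CPM per kb in male p53 Y217C. In the other 6 lines Il1rl1 was the higher, by 1.87-fold in male p53 KO up to 48.9-fold in female p53 KO. Counts are per gene, so transcripts of the soluble decoy and of the signaling receptor could not be separated. Female p53 R172H, with the highest Il1rl1, had 15.6-fold more Il1rl1 than Il33 on this scale.

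Between the lines without mutant p53, the male and the female p53 KO astrocytes, these genes already differed. All 5 tested members passed the test between the sexes, 4 higher and 1 lower in the male line, where 17.2% and 13.8% of all genes were called. Il33 was higher in the male line by 4.46 on the log2 scale (SE 0.22, adjusted p = 1.35e-13), Il1r1 by 0.92 (adjusted p = 1.41e-07), and Il1rap by 0.47 (adjusted p = 1.84e-06). Il1rl1 was lower in the male line, with a log2 difference of -0.24 (adjusted p = 0.0118). Il18 was higher by 0.45 (adjusted p = 0.0377), with overlapping libraries, and this call was lost without female p53 KO replicate 1 or 2 or male p53 KO replicate 2 or 3 (adjusted p = 0.189, 0.0753, 0.0678, and 0.227, respectively). Il1rn, without a test, also did not overlap between the KO lines.

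With p53 Y202C the members that passed were lower in the male line. Of the 5 members 0 were higher and 3 lower in the male line, beside 37.7% higher and 37.7% lower over all genes. Il33 was lower in the male line with a log2 difference of -5.14 (adjusted p = 3.8e-17), Il1r1 with -4.56 (adjusted p = 1.64e-20), and Il1rl1 with -2.23 (adjusted p = 2.89e-18). Il1rap and Il18 overlapped between the sexes, with log2 differences of -0.05 each (adjusted p = 0.461 and 0.787). With p53 Y217C 2 members were higher and 3 lower in the male line, beside 33.4% and 34.6% of all genes. There Il33 was higher by 1.21 (adjusted p = 3.67e-06) and Il18 by 1.04 (adjusted p = 4.83e-06), and Il1rl1, Il1r1, and Il1rap were lower, with log2 differences of -2.41, -1.12, and -0.52 (adjusted p of 1.79e-17, 4.42e-09, and 8.3e-08). For p53 R172H, without a test, the female mean was 14-fold the male mean for Il1rl1, 8.72-fold for Il33, 4.86-fold for Il1r1, 1.34-fold for Il1rap, and 1.11-fold for Il18.

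The effect of a mutation against p53 KO was then compared between the sexes by an interaction term. For p53 Y202C 4 of 5 members passed, beside 68.0% of all genes, and for p53 Y217C 5 of 5, beside 54.8%. For Il33 the effect of p53 Y202C was a rise of 7.33 in females and a change of -2.27 in males, a difference of -9.60 on the log2 scale (SE 0.30, adjusted p = 1.93e-18). For Il1r1 the same difference was -5.48 (adjusted p = 3.01e-19) and for Il1rl1 it was -2.0 (adjusted p = 1.8e-14). Il18 did not pass for p53 Y202C (-0.51, adjusted p = 0.0582). For p53 Y217C the differences were -3.25 for Il33, -2.17 for Il1rl1, and -2.04 for Il1r1, with adjusted p of 1.73e-09, 4.38e-14, and 3.8e-11. Il18 was the member with a larger effect in the male line (0.59, adjusted p = 0.0343), and its call was lost in 7 of the fits that leave out 1 library (female p53 KO replicate 2 or 3, female p53 Y217C replicate 3, male p53 KO replicate 1 or 2, and male p53 Y217C replicate 1 or 3), with adjusted p from 0.058 to 0.111.

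Of 13 further genes of the family and its receptors, 4 had a row, and all 4 were low. Il1rl2, the receptor for IL-36 ligands, was highest in female p53 R172H at 12 ± 1.47 CPM against 2.0 ± 0.222 CPM in female p53 KO (SD, n = 3 each, no test). It fell in all 3 male mutant lines, with log2 differences of -0.74 in p53 R172H (adjusted p = 0.00257), -1.74 in p53 Y202C (adjusted p = 3.25e-08), and -2.23 in p53 Y217C (adjusted p = 1.05e-09), and rose in female p53 Y217C (0.56, adjusted p = 0.0156). Il18rap, a subunit of the IL-18 receptor, fell in female p53 Y202C (-0.33, adjusted p = 0.00434), female p53 Y217C (-1.29, adjusted p = 1.38e-10), and male p53 Y202C (-0.97, adjusted p = 3.21e-09), and rose in male p53 Y217C (0.29, adjusted p = 0.00776). It was at 4.96 ± 0.133 CPM in female p53 R172H against 8.53 ± 0.474 CPM in female p53 KO (no test). Il18bp, the secreted binding protein that neutralizes IL-18, was at 1.66 ± 0.240 CPM in female p53 KO and 3.78 ± 0.676 CPM in female p53 R172H (no test). It fell in male p53 Y202C and male p53 Y217C (-0.83 and -0.78, adjusted p = 0.000544 and 0.00107). Sigirr, an inhibitory receptor of the family, fell in female p53 Y202C (-0.84, adjusted p = 0.0138), male p53 Y202C (-0.78, adjusted p = 0.011), and male p53 Y217C (-3.34, adjusted p = 2.79e-09), and was at 0.529 ± 0.0661 CPM in female p53 R172H against 0.983 ± 0.154 CPM in female p53 KO (no test).

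Genes known to respond to interleukin-1 were described as a list of 33, of which 28 had a row. Many of them also respond to other inflammatory signals. Some had a row only because of the lines where they are high, since every gene of the table passed 1 CPM in 3 or more libraries. Saa3, Icam1, and Mmp13 exceeded 1 CPM only in female p53 R172H, Ccl20 only in female p53 Y202C, and Lcn2 only in both of these lines. The list was also chosen with earlier results known, so the counts below describe it and are no test of a response to interleukin-1. In female p53 Y202C 19 of the 28 (67.9%) were called higher and 4 (14.3%) lower, beside 34.3% and 34.3% of all genes, with a median log2 fold change of 1.67. For female p53 Y217C the counts were 15 (53.6%) and 3 (10.7%), beside 28.0% and 28.7%, with a median of 0.69. In male p53 R172H 7 (25%) were higher and 8 (28.6%) lower, beside 20.2% and 20.5%, with a median of 0.05, or 0.02 with Saa3 set at its bound. In male p53 Y202C 11 (39.3%) were higher and 13 (46.4%) lower, near the 37.6% and 35.4% of all genes, with a median of -0.15. In male p53 Y217C 8 (28.6%) were higher and 16 (57.1%) lower, beside 34.9% and 35.6%, with a median of -0.74. The median over all 14427 genes was between -0.01 and 0.01 in every one of these comparisons. In female p53 R172H, the comparison that selected the set, the median was 3.25. The fit called 23 higher and 4 lower there, with 34.4% and 35.3% of all genes called higher and lower, and nothing is read from these counts.

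Named genes of this list had at least 10 reads in every library of the higher line. Lcn2, which encodes the iron-siderophore binding protein lipocalin 2, was the largest rise among them in female p53 Y202C, from 0.0764 ± 0.0232 CPM in female p53 KO to 7.42 ± 0.582 CPM (log2 fold change 6.61, adjusted p = 8.69e-16). As stated above, Lcn2 had a row only because of this line and female p53 R172H, so this call is a description. It was also the largest rise among them in female p53 Y217C (2.12, adjusted p = 1.76e-05). Ptgs2, the inducible cyclooxygenase, was the largest fall in both lines, from 279 ± 17.9 CPM to 52.7 ± 11.6 and 138 ± 35.3 CPM, with log2 fold changes of -2.41 (adjusted p = 3.59e-12) and -1.02 (adjusted p = 4.39e-06). In female p53 R172H, described without a test, Saa3, an acute-phase serum amyloid, was at 6.95 ± 0.552 CPM. Female p53 KO held at most 2 reads of Saa3 in a library, so the level was at least 215-fold higher, set against a floor of 3 reads per library, and its place among the rises is not known. C3, the central complement component, went from 0.368 ± 0.0962 to 187 ± 23.3 CPM between the same lines. Tnfaip3, a deubiquitinase that restrains NF-kappaB signaling, was at 10.7 ± 0.703 CPM there against 45.6 ± 3.95 CPM in p53 KO.

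In the male lines Cxcl5, a neutrophil chemokine, was the largest fall in all 3 comparisons, from 1.6 ± 0.0372 CPM in p53 KO to 0.034 CPM in p53 R172H, 0.0424 CPM in p53 Y202C, and 0.0342 CPM in p53 Y217C, with adjusted p of 4.99e-10, 1.43e-10, and 1.25e-10. The same gene stood at 350 ± 17.4 CPM in female p53 R172H and 26.6 ± 0.942 CPM in female p53 Y202C, against 1.37 ± 0.357 CPM in female p53 KO. Mmp9, a matrix metalloproteinase, was the largest rise in male p53 R172H (1.27, adjusted p = 0.0094), and Tlr2, a pattern recognition receptor, in male p53 Y217C (1.59, adjusted p = 7.72e-10). In male p53 Y202C Saa3 rose at least 6.35-fold over the floor in p53 KO. C3, which was named only after its values were seen, rose there from 1.31 ± 0.309 to 23.8 ± 2.01 CPM (4.16, adjusted p = 1.81e-16).

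**Figure D3:**
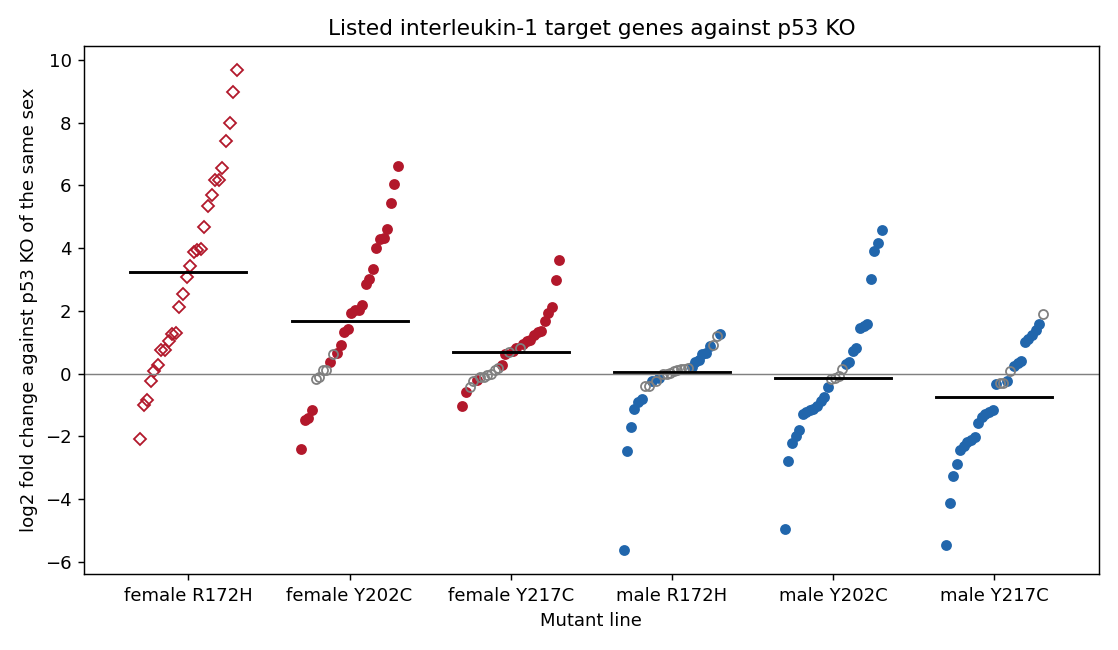
Log2 fold change (vertical axis) of the 28 listed interleukin-1 target genes in each mutant line against p53 KO of the same sex, sorted within a line. Filled points passed the test and open circles did not, open diamonds stand for female p53 R172H, whose calls are not shown, and black bars are medians, which run from 3.25 in female p53 R172H to -0.74 in male p53 Y217C.

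The intracellular signaling chain had medians near zero. Of 31 signaling genes with a row, 17 (54.8%) were higher and 7 (22.6%) lower in female p53 Y202C, where 34.3% of all genes were called in each direction. The counts were 8 (25.8%) and 6 (19.4%) in female p53 Y217C, beside 28.0% and 28.7% of all genes. Male p53 R172H had 10 (32.3%) higher and 8 (25.8%) lower, beside 20.2% and 20.5%. Male p53 Y202C had 16 (51.6%) and 10 (32.3%), beside 37.6% and 35.4%. Male p53 Y217C had 8 (25.8%) and 16 (51.6%), beside 34.9% and 35.6%. The medians of the list lay between -0.17 and 0.15. Peli2, a ubiquitin ligase that acts on the IRAK kinases, was the largest rise in male p53 Y217C, from 2.38 ± 0.225 to 39.6 ± 2.13 CPM (4.05, adjusted p = 1.02e-18), in male p53 Y202C (2.46, adjusted p = 6.6e-15), and in female p53 Y202C (1.17, adjusted p = 1.29e-07), and the largest fall in male p53 R172H (-3.08, adjusted p = 9.12e-13). Map3k8, a kinase upstream of ERK, was the largest rise in male p53 R172H (0.82, adjusted p = 0.000125) and female p53 Y217C (1.22, adjusted p = 2.66e-07), and in female p53 R172H it was at 8.05 ± 0.173 CPM against 1.34 ± 0.179 CPM. The largest falls were Mapk8, a JNK kinase, in female p53 Y202C (-0.68, adjusted p = 1.51e-08) and female p53 Y217C (-0.73, adjusted p = 9.13e-09), Map2k6, a kinase that activates p38, in male p53 Y202C (-1.74, adjusted p = 6.86e-10), and Irak3, an inhibitory member of the IRAK family, in male p53 Y217C (-1.59, adjusted p = 4.64e-10). Map3k3, a kinase that acts downstream of the receptor, was at 72.8 ± 1.86 CPM in female p53 R172H against 104 ± 1.48 CPM in its control, without a test.

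Of 16 genes that process or release the ligands, 9 had a row. In female p53 Y202C 3 (33.3%) were higher and 4 (44.4%) lower, beside 34.3% and 34.3% of all genes. Female p53 Y217C had 2 (22.2%) higher and 5 (55.6%) lower, beside 28.0% and 28.7%. Male p53 R172H had 2 (22.2%) and 5 (55.6%), beside 20.2% and 20.5%. Male p53 Y202C had 3 (33.3%) and 6 (66.7%), beside 37.6% and 35.4%. Male p53 Y217C had 2 (22.2%) and 6 (66.7%), beside 34.9% and 35.6%. With 9 genes these shares are a description only. Their median log2 fold change was -0.31 for female p53 Y202C, -0.33 for female p53 Y217C, -0.18 in male p53 R172H, -0.58 in male p53 Y202C, and -0.57 in male p53 Y217C. Without Casp1, which is at or under the floor of 3 reads on both sides, the value for female p53 Y202C was -0.21, and that for female p53 R172H went from -0.14 to 0.14. Casp1, the protease that matures IL-18 and interleukin-1 beta, was the largest rise in male p53 Y202C, from 0.251 ± 0.139 to 5.0 ± 0.849 CPM (4.24, adjusted p = 2.5e-10), and in male p53 Y217C, to 6.39 ± 1.26 CPM (4.6, adjusted p = 8.34e-11). In female p53 KO, p53 R172H, and p53 Y202C it had at most 2 reads in a library. Casp1 exceeded 1 CPM only in male p53 Y202C and male p53 Y217C, so it had a row only because of these lines. Its calls there describe the gene and are no independent evidence of a rise. Casp4, which encodes the inflammatory caspase-11 in mice, was the largest rise in female p53 Y202C (1.80, adjusted p = 6.19e-05) and female p53 Y217C (3.87, adjusted p = 7e-11) and stood at 8.01 ± 0.557 CPM in female p53 R172H against 0.122 ± 0.0392 CPM in female p53 KO. Gsdmd, the pore-forming gasdermin, was the largest rise in male p53 R172H (0.48, adjusted p = 2.62e-05) and the largest fall in male p53 Y217C (-2.60, adjusted p = 4.91e-18). P2rx7, an ATP-gated channel, was the largest fall in male p53 R172H (-2.41, adjusted p = 9.7e-13), Panx1, a channel for ATP release, in male p53 Y202C (-1.21, adjusted p = 1.88e-09) and female p53 Y202C (-1.92, adjusted p = 1.69e-12), and Capn2, a calpain subunit, in female p53 Y217C (-1.18, adjusted p = 9.19e-15). In female p53 R172H, without a test, Panx1 was at 5.51 ± 0.349 CPM against 12.6 ± 0.167 CPM in its control.

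The genes next to Il1rn were described for the 500 kb on each side, where 7 genes had a row, Il1rn included. The annotation has 12 protein-coding genes in this window, so several had no row. A neighbor that was low in every line could not appear, so the rows do not show how the neighbors behaved as a set. Psd4, a guanine nucleotide exchange factor for ARF6 that begins 16086 bp downstream, was at 20.9, 20.0, and 20.0 CPM in female p53 R172H and 0.0393, 0.102, and 0.0966 CPM in female p53 KO, a ratio of 256. It was at 0.733 ± 0.0537 CPM in female p53 Y202C (SD, n = 3) and at most 0.267 CPM in every library of the other lines. Psd4 thus exceeded 1 CPM, the level that every gene of the table passed, only in female p53 R172H. Cacna1b, a neuronal calcium channel subunit 252393 bp away, was at 18.1, 16.8, and 17.2 CPM in female p53 R172H, 6.22-fold the female p53 KO mean, but was lower in female p53 Y202C than in p53 KO, at 1.53 against 2.79 CPM.

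Pax8, a transcription factor 69066 bp away, went from 0.102 to 1.10 CPM between female p53 KO and p53 R172H and was highest in male p53 Y217C at 1.44 CPM. Gm13415 went from 1.07 to 3.04 CPM. Ehmt1, a histone methyltransferase 438434 bp away, stood at 98.7 CPM in female p53 KO and 90.6 CPM in female p53 R172H, and Gm13410, the one neighbor with a row on the other side of Il1rn, at 1.22 and 1.33 CPM. None of these ratios was tested, since they come from the comparison that selected the set.

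**Figure D4:**
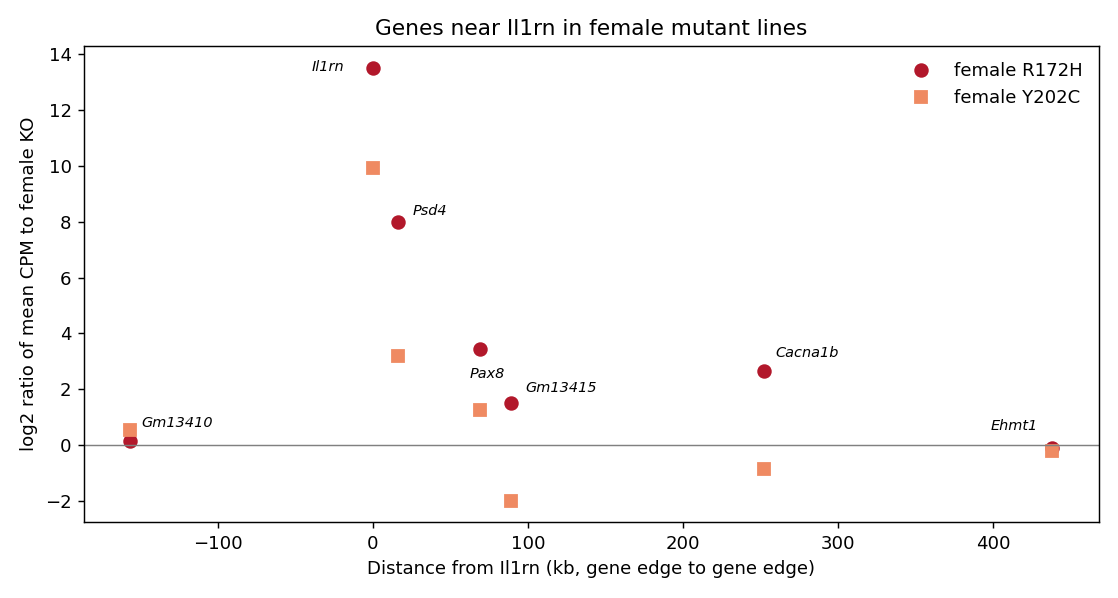
Log2 ratio of mean CPM to female p53 KO (vertical axis) for the 7 genes with a row within 500 kb of Il1rn, Il1rn included, against the distance from Il1rn in kb, in female p53 R172H (circles) and female p53 Y202C (squares). The ratio of Psd4 is 8.0 in female p53 R172H and 3.21 in female p53 Y202C, and Ehmt1 lies near zero in both.

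The genes whose levels followed Il1rn most closely were ranked by Pearson's r of log2 CPM over the 24 libraries, among 10485 genes that reached 10 CPM in some line. The libraries share lines, cultures, and controls, so r describes the pattern over 8 lines and has no p. The 8 highest were Ifi203 (r = 0.976), Agtr2 (0.974), Trim21 (0.973), Slfn8 (0.972), Reck (0.971), Irf9 (0.965), Cxcl1 (0.960), and Il4ra (0.959). Ifi203, Agtr2, Trim21, and Slfn8 reached a mean of 10 CPM only in female p53 R172H, the line that selected the set. They entered the ranking only through that line, so a high r with Il1rn was in part built in for them. Ifi203, an interferon-inducible gene, went from 0.227 CPM in female p53 KO to 51.0 CPM in female p53 R172H and 8.48 CPM in female p53 Y202C. Irf9, a subunit of the interferon-stimulated transcription factor, went from 14.5 to 115 and 42.7 CPM, and Cxcl1, a chemokine of the target list, from 3.34 to 85.8 and 27.0 CPM. Agtr2, an angiotensin receptor, was at 19.7 CPM in female p53 R172H and 2.99 CPM in female p53 Y202C and was listed at 0 in all male lines and female p53 Y217C.

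Among the members themselves, r with Il1rn was 0.888 for Il1r1, 0.747 for Il1rl1, 0.586 for Il33, 0.534 for Il1rap, and 0.400 for Il18 over the same 24 libraries. The levels of Il1r1 and Il33 peaked in female p53 Y202C and those of Il1rn and Il1rl1 in female p53 R172H.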

How the data were processed

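RNA-seq was analysed in 24 libraries of 8 lines, grouped by the sample labels. The authors aligned reads with STAR 2.5.1a, counted reads that aligned uniquely to 1 gene with featureCounts, and deposited raw counts without normalization for 14427 genes. Every gene in the table passed 1 CPM in 3 or more libraries. Gene names came from GENCODE M21 (GRCm38), which matched 14350 identifiers, and promoters from RefSeq (GRCm38.p6).

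CPM were scaled by TMM in edgeR 4.0.16 (R 4.3.3). A filter of 1 CPM in 2 libraries left every gene in place. The quasi-likelihood fit took all libraries together with a mean for each line, Benjamini-Hochberg adjustment over all genes and a threshold of 0.05. The fit was also run on simulated data. Members and lists were chosen with earlier results of these data known. Named genes were the members, every detected further family gene, Trp53, per comparison and list the largest rise and fall among called genes with at least 10 reads in every library of the higher line, the 8 genes most correlated with Il1rn, and its neighbors within 500 kb. Slc1a3, Gfap, and Tmem119 are markers. C3, Bco2, the listed genes named for the filter of the table, and the other markers named singly were added after their values were seen. Depth limits the low levels, and a floor of 3 reads covers counting error only.

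Alternatives were limma 3.58.1 with voomWithQualityWeights, DESeq2 1.42.0, its size factors, total counts, other filters, an added fold threshold, only the lines compared, the replicate block, and leaving out each replicate.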

Additional observations from a re-analysis of the deposited data

Results flagged for a closer look

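The effect of a mutation against p53 KO differed between the male and female lines for 9 of the 10 combinations of member and mutation tested, by the interaction term of edgeR's quasi-likelihood model adjusted over all genes. The same test called 68.0% of all genes for p53 Y202C and 54.8% for p53 Y217C. The values are the male effect minus the female effect on the log2 scale. For p53 Y202C the difference was -9.60 for Il33, -5.48 for Il1r1, -2.0 for Il1rl1, and -0.52 for Il1rap (adjusted p = 1.93e-18, 3.01e-19, 1.8e-14, and 1.11e-05). For p53 Y217C it was -3.25 for Il33, -2.17 for Il1rl1, -2.04 for Il1r1, and -0.99 for Il1rap (adjusted p = 1.73e-09, 4.38e-14, 3.8e-11, and 8.57e-10).

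For Il18 the difference under p53 Y217C was 0.59, a larger rise in the male line (adjusted p = 0.0343). Its call was lost without female p53 KO replicate 2 or 3, female p53 Y217C replicate 3, male p53 KO replicate 1 or 2, or male p53 Y217C replicate 1 or 3, with adjusted p from 0.058 to 0.111. Each sex is 1 culture, so these differences cannot be told apart from differences between the cultures. The level of Trp53 also differed between the male and the female line of a mutation, and its part was not tested.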

How the results depend on the processing

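Leaving aside the fit without a filter, which had the same genes as the one reported, 295 of the single-gene results kept their direction and side of the threshold under the alternatives that use every library and 5 became called, while with 1 library left out 345 kept theirs, 4 became called, and 11 lost their call. The 11 lost calls were all for Il18, in the sex difference of p53 KO and the p53 Y217C interaction. Direction never reversed in the member tests run. Requiring an absolute log2 fold change above 0.5 as well reduced the members called between the KO lines from 5 to 2, and the pathway list genes called from 41 to 17 in male p53 R172H and from 56 to 34 in female p53 Y202C. Scaling by total counts gave a mean of 28.7 CPM for Il1rap and 3.25 CPM for Il1rl1 in male p53 Y217C and 61.4 CPM for Il1rl1 in female p53 KO, in place of 26.9, 3.04, and 63.4 CPM. With limma, Il1rap became called in male p53 Y217C (adjusted p = 0.0454) and between the sexes with p53 Y202C (adjusted p = 0.0365). The Il18 interaction for p53 Y202C became called with limma, with DESeq2, and with a filter of 5 CPM (adjusted p = 0.0456, 0.0472, and 0.0315), and without female p53 KO replicate 3, female p53 Y202C replicate 1, male p53 KO replicate 1, or male p53 Y202C replicate 3 (adjusted p from 0.0269 to 0.0479). The cause was not tested.

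The replicate number was shared between lines but the labels do not say that it marks a batch. Deviations of same-numbered libraries had mean correlations from -0.184 to 0.138 over 10 comparisons, and in 0 of them was every pair above 0.1 or did all 3 correlate best with their own number. With the replicate block the counts of members called were 3 in male p53 R172H and 5 in female p53 Y202C, as without it, and no member call changed. Counts over all genes were 1.007 to 1.039 times larger without the block.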
